A study of Mus musculus with 18 samples.

Results

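Cytl1, Chadl, Ucma, Scrg1, Cnmd and Mia are 6 genes whose products chondrocytes release into cartilage, and they were described here in 18 RNA-Seq libraries of mouse knee cartilage. They are 6 of the 49184 genes to which the deposited transcripts could be assigned, and they were listed by name. The list was chosen by family and with earlier results of these libraries known, among them the measured day 7 levels of Cytl1 and Chadl after injury. Every comparison that uses the day 7 injured libraries is therefore given for these 6 genes as a description. Where calls of these genes are printed for such a comparison, they are not read as a test. All libraries came from male C57Bl/6J mice aged 12 weeks. The right knee was loaded once with 12 N until the anterior cruciate ligament (ACL) ruptured, and the left knee of the same mice was the contralateral control. There were 3 injured and 3 contralateral libraries at day 1, 3 injured and 3 contralateral libraries at day 7, and 6 libraries of naïve mice, which carry the label of day 7. Each library was a pool of knees. The deposited text gives 4 mice for every sample, whereas the scheme of the study pools 2 mice in a day 1 library and 4 in a day 7 library. For the naïve libraries the scheme shows 6 mice, with 2 knees to a library and left and right knees pooled separately. By this scheme the 6 naïve libraries share mice, so n = 6 counts libraries and not independent animals. The labels do not say which libraries share mice, all were treated as independent, and p-values therefore measure the spread between these pools.

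The matrix of cartilage is built from collagen II and aggrecan, and chondrocytes also secrete small proteins that act on the matrix, on mineral or on other cells. Cytl1 is a secreted cytokine-like protein. Chadl is a chondroadherin-like protein with leucine-rich repeats that binds collagen. Ucma is a Gla protein, in which the vitamin K-dependent carboxylase Ggcx modifies glutamate residues. Scrg1 is a short cysteine-rich protein for which Bst1 has been described as a receptor. Cnmd (chondromodulin) is made as a membrane-bound precursor whose released end inhibits vessel growth, and Tnmd of tendon is its closest relative. Mia, also called cartilage-derived retinoic acid-sensitive protein, has an SH3-like fold and belongs to a family with Otor, Mia2 and Mia3.

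In GRCm38 (GENCODE annotation), all 6 are protein-coding genes. Cytl1 (ENSMUSG00000062329) lies at chr5:37735519-37739820 on the plus strand, Ucma (ENSMUSG00000026668) at chr2:4976122-4985748 on the plus strand and Scrg1 (ENSMUSG00000031610) at chr8:57455923-57477585 on the plus strand. On the minus strand lie Chadl (ENSMUSG00000063765) at chr15:81678296-81697287, Cnmd (ENSMUSG00000022025) at chr14:79637690-79662170 and Mia (ENSMUSG00000089661) at chr7:27179742-27181157. Chadl overlaps L3mbtl2 on the other strand, and the strand setting of the counting is not given in the sources used here, so reads of the overlap cannot be told apart. Mia overlaps Gm21983 on its own strand, and the division of reads between them is uncertain.

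The annotated transcripts of Ucma and Cnmd differ by stretches of coding sequence, which help to decide to which transcript a read is given. They also differ outside the coding sequence, which bears on this too. Cnmd-203, with 1014 coding bases, has 1362 bases in all, whereas Cnmd-201, with 1002 coding bases, has 1433. The Ucma exons are shown because libraries differed in the share of each transcript, and the Cnmd stretch because it separates the 2 transcripts that took most of its counts. Each is printed 5′ to 3′ on the strand of the gene, with the stretch in capitals and its coding neighbours in lower case. The first 2 are whole coding exons of Ucma, at chr2:4976655-4976720 and chr2:4981238-4981336, and the third lies in the coding sequence of Cnmd at chr14:79642063-79642074 on the minus strand.
Ucma exon of 66 bases, in Ucma-202 and not in Ucma-201: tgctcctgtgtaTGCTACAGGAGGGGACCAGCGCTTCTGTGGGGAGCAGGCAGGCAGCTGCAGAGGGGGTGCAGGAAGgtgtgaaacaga
Ucma exon of 99 bases, in Ucma-202 and not in Ucma-204: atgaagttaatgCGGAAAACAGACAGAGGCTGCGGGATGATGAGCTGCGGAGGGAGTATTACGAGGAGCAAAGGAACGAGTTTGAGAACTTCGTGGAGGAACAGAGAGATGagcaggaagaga
Cnmd stretch of 12 bases, in Cnmd-203 and not in Cnmd-201: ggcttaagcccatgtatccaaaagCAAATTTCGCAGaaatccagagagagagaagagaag

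The depth of the libraries, as the total of estimated counts, ranged from 16074762 to 41794005 with a median of 25465706. Cytl1 had between 269 and 3165 counts in a library and Cnmd between 428 and 1603. Chadl had 197 to 615, Scrg1 130 to 311, Ucma 98 to 306 and Mia 91 to 350, so that the levels of the last 3 rest on the fewest reads. All 6 genes passed the filter on low counts. Levels between libraries are given as CPM, counts relative to the TMM-scaled size of the library, and levels between genes as TPM, which also allow for transcript length. Library 13, a day 7 contralateral pool, stood apart from the others. Its 10 most abundant genes held 42.5% of the counts, against 16.6% to 29.8% elsewhere, and its TMM factor of 0.695 was the lowest. Comparisons of the 6 genes with the day 7 contralateral group are therefore given with and without it.

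Per transcript length, Cytl1 was the most abundant of the 6 genes in naïve cartilage, with a median of 54.0 TPM, and its mean lay above that of 97.0% of the genes tested. Cnmd followed with a median of 20.6 TPM, then Scrg1 with 9.94, Mia with 9.54, Ucma with 6.23 and Chadl with 3.37. Neighbours in this order overlapped in their naïve ranges, except Cnmd and Scrg1. Cytl1 ranged from 26.5 to 69.1 TPM, Cnmd from 15.4 to 28.2, Scrg1 from 6.93 to 12.1 and Mia from 6.44 to 12.8. Ucma, at 4.03 to 9.54 TPM, overlapped with Mia and with Chadl, at 2.25 to 4.97 TPM. Cytl1 and Cnmd also had the highest and Chadl the lowest median in the day 1 injured, day 1 contralateral and day 7 contralateral groups.

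At day 7 after rupture the order was different. Cnmd had the highest median, at 22.9 TPM, ahead of Scrg1 at 9.13 and Cytl1 at 8.56, followed by Ucma at 6.45, Mia at 6.03 and Chadl at 2.29. The range of Cnmd, 15.9 to 24.0 TPM, lay apart from that of Scrg1, 8.02 to 10.1, which overlapped with Cytl1 at 7.40 to 8.96. Ucma, at 4.52 to 6.47 TPM, lay below Cytl1 and overlapped with Mia at 5.82 to 6.86, and Chadl was below both at 1.74 to 2.46. Cytl1 then lay above 78.7% of the genes tested, whereas Cnmd lay above 92.7%, compared with 91.3% in naïve cartilage.

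**Figure D1:**
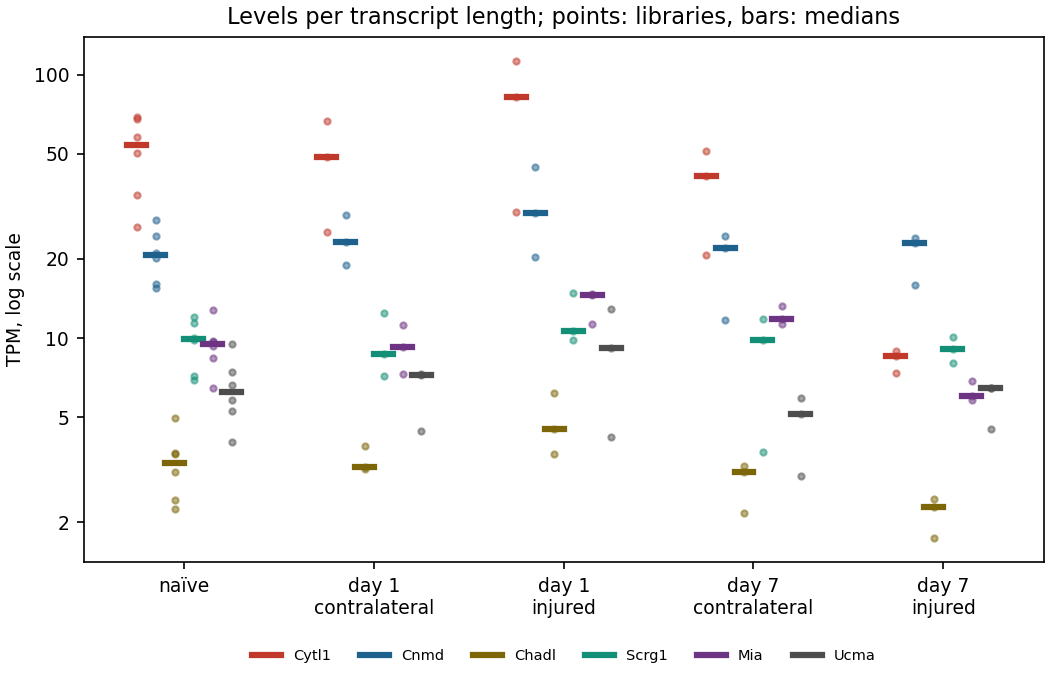
Levels of the 6 genes in TPM on a log scale, by group; points are libraries and bars are group medians. Cytl1 has the highest median in each group but day 7 injured, where its median of 8.56 TPM lies below those of Cnmd and Scrg1.

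Cytl1 was the member whose level differed most at day 7. In the 6 naïve libraries it ranged from 38.0 to 111 CPM with a median of 89.4. It was at 73.6, 65.8 and 36.7 CPM in the day 1 contralateral libraries, at 102, 33.3 and 102 CPM in the day 1 injured libraries and at 86.2, 50.1 and 77.1 CPM in the day 7 contralateral libraries. In the day 7 injured libraries it was at 16.6, 16.8 and 14.5 CPM. All 3 of these lay below each of the other 15 libraries, which spanned 33.3 to 111 CPM, a 3.34-fold range. The share of genes that did so against all 15 was not counted, and nothing is read from this order. The SD was 1.31 CPM (n = 3) in the day 7 injured libraries, and the naïve mean was 80.5 ± 28.6 CPM (SD, n = 6). By edgeR the level was 4.96-fold lower than in naïve libraries, −2.31 on the log2 scale (standard error 0.401). It was −2.14 (standard error 0.422) against the day 7 contralateral and −2.28 (standard error 0.431) against the day 1 injured libraries. Without library 13 the second of these was −1.963 (standard error 0.454). Leaving out each library in turn and changing the tool kept the difference from naïve between −2.46 and −2.20. In a pool of tissue, fewer cells of a type and less RNA per cell cannot be told apart.

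The level of Cytl1 also varied among naïve libraries, with a coefficient of variation of 35.5%, larger than that of 81.5% of the genes tested. The coefficient was 30.9% for Ucma and 22.8% for Chadl, and between 15.7% and 16.5% for Cnmd, Mia and Scrg1. Relative to Col2a1, the gene of collagen II, both Cytl1 and Chadl were lower in all day 7 injured than in all naïve libraries, as were 8.66% of genes, and no member was higher in all (5.35%). Per 1000 TPM of Col2a1 there were 23.8 to 26.9 TPM of Cytl1 in day 7 injured libraries and 84.4 to 209 in naïve libraries. For Cytl1 the day 7 contralateral libraries were at 44.9, 109 and 144. The first of these, library 13, also lay below the naïve range. On this scale Chadl was at 6.19 to 6.84 in day 7 injured and 7.95 to 11.5 in naïve libraries. The day 7 contralateral libraries were at 4.71, 8.19 and 9.18, of which the first is library 13. Library 13 lay below the injured range and the other contralateral libraries lay above it. Mia, at 16.2 to 21.9 in day 7 injured and 21.6 to 33.2 in naïve libraries, overlapped at the edge of the ranges. The groups overlapped also for Cnmd, at 57.7 to 65.0 and 47.5 to 67.2, and for Scrg1 and Ucma.

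**Figure D2:**
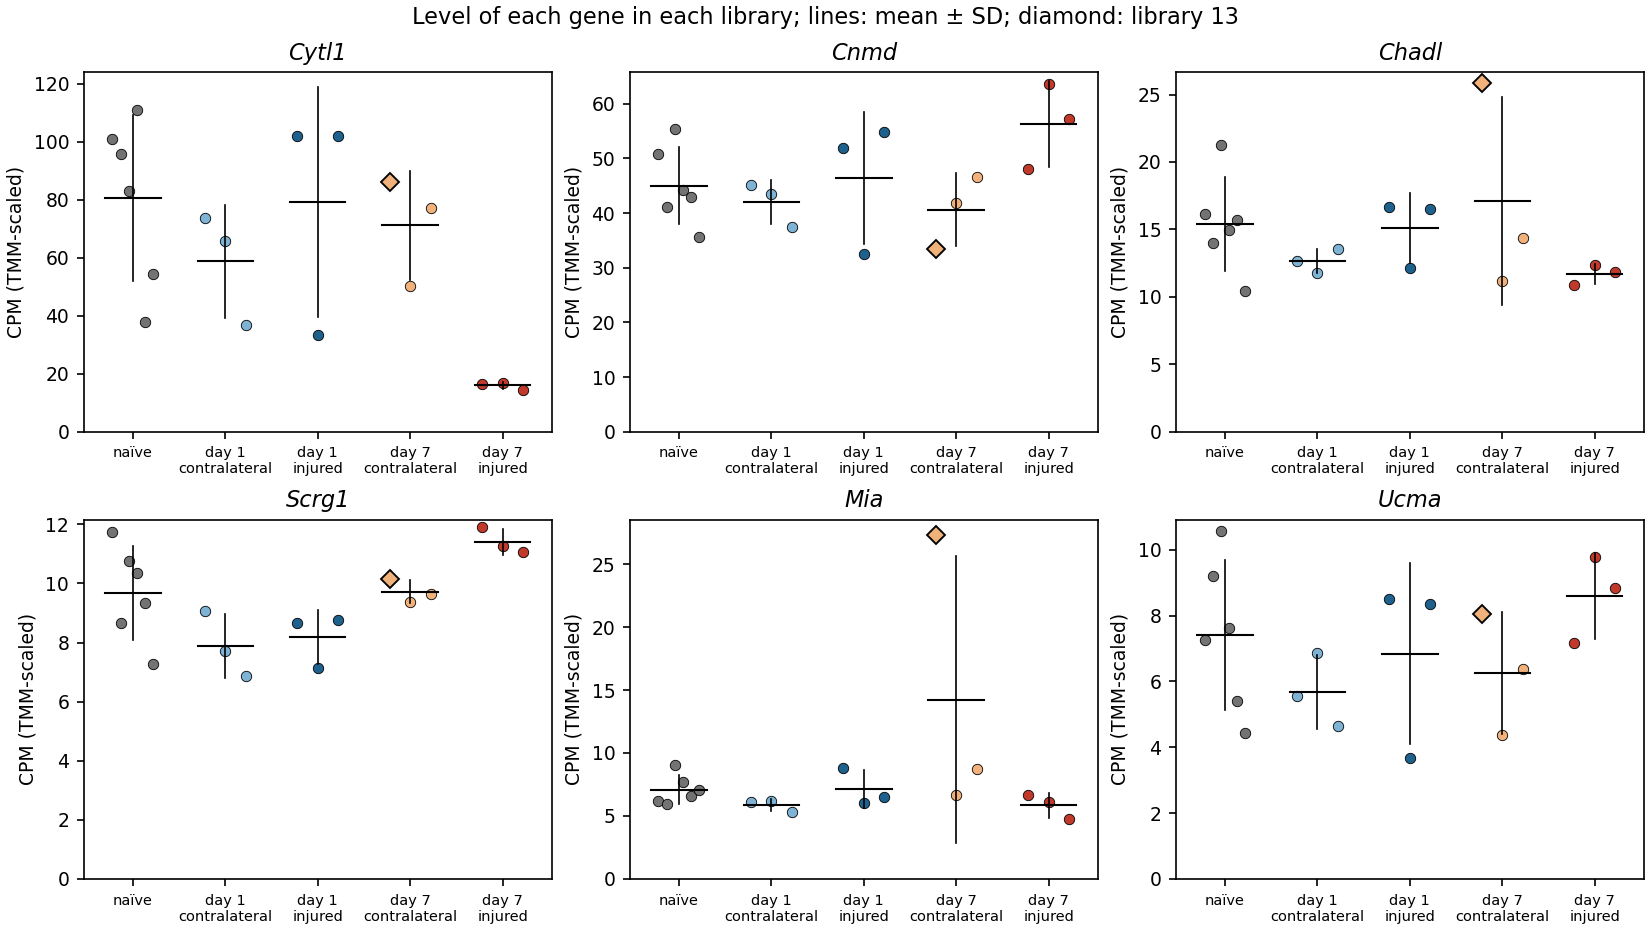
Level of each of the 6 genes in CPM in every library, by group, with the group mean and SD as lines and library 13 as a diamond. Cytl1 in day 7 injured libraries lies between 14.5 and 16.8 CPM, below all others, and Mia and Chadl are highest in library 13.

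Among the matrix-associated members, Chadl was at 10.9, 12.3 and 11.8 CPM in the day 7 injured libraries and at 10.5 to 21.2 CPM, median 15.3, in the naïve libraries. These ranges overlapped, and the difference was −0.38 on the log2 scale (standard error 0.169). The day 7 contralateral libraries were at 25.8, 11.2 and 14.3 CPM, of which the first is library 13. Against them the injured libraries were at −0.53 (standard error 0.256), and −0.10 (standard error 0.213) without library 13. L3mbtl2, which overlaps Chadl on the other strand, was also highest in library 13, at 30.7 CPM.

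Ucma was at 7.18, 9.77 and 8.84 CPM in the day 7 injured libraries and at 4.42 to 10.6 CPM, median 7.43, in the naïve libraries. The injured range lay within the naïve one, with a difference of 0.24 on the log2 scale (standard error 0.276). The day 7 contralateral libraries were at 8.04, 4.36 and 6.36 CPM, of which the first is library 13, and overlapped with the injured ones. The log2 difference from them was 0.48 (standard error 0.332), and 0.71 (standard error 0.365) without library 13, which exceeds 1.5-fold. Without library 13 the injured libraries all lay above the contralateral ones. Nothing is read from this order, for which no share over all genes was counted.

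Of the other secreted members, Scrg1 was at 11.9, 11.3 and 11.1 CPM in the day 7 injured libraries, of which the first lay above and the others within the naïve range of 7.28 to 11.7 CPM. It was at 10.1, 9.39 and 9.63 CPM in the day 7 contralateral and at 8.67, 7.13 and 8.76 CPM in the day 1 injured libraries. All 3 day 7 injured libraries lay above both of these groups. The log2 fold changes were 0.26 (standard error 0.136) against naïve, 0.24 (standard error 0.157) against day 7 contralateral and 0.50 (standard error 0.158) against day 1 injured libraries, none of which reached 1.5-fold. Without library 13 the second was 0.30 (standard error 0.170).

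Cnmd was at 48.1, 63.7 and 57.3 CPM in the day 7 injured libraries and at 35.6 to 55.4 CPM, median 43.5, in the naïve libraries. The ranges overlapped, and the log2 fold change was 0.35 (standard error 0.156). The day 7 contralateral libraries were at 33.4, 41.8 and 46.6 CPM, all below the injured ones. The log2 fold change against them was 0.48 (standard error 0.188) and 0.15 (standard error 0.209) once average transcript lengths were allowed for. Without library 13 it was 0.38 (standard error 0.199).

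Mia was at 6.68, 6.13 and 4.74 CPM in the day 7 injured libraries and at 5.98 to 9.09 CPM, median 6.83, in the naïve libraries. The ranges overlapped, with a log2 difference of −0.26 (standard error 0.161). In the day 7 contralateral group it was at 27.3 CPM in library 13 and at 6.67 and 8.71 CPM in the other libraries. On the log2 scale, injured and contralateral libraries differed by −1.25 (standard error 0.367) with library 13 and −0.36 (standard error 0.204) without it. In TPM the same library was at 13.3, little above the 11.3 and 11.9 TPM of the other contralateral libraries. The day 7 injured libraries were at 6.03, 6.86 and 5.82 TPM and the naïve ones at 6.44 to 12.8 TPM. In this unit the injured libraries all lay below the contralateral ones, with or without library 13, and overlapped with the naïve ones. No share over all genes was counted for this order, and nothing is read from it. The overlapping Gm21983 had 66.0 estimated counts in library 13, at most 10.1 in 3 naïve libraries and 0 in the other 14.

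Against naïve libraries, 1 of the 6 genes, Cytl1, met the limits for a call, an FDR up to 0.05 with a change of 1.5-fold or more, where 16.6% of the genes tested met them (6.11% lower, 10.4% higher). Cytl1 was also the one member with the day 7 injured libraries all lower (11% of genes), and none was all higher (17.3%). Against day 7 contralateral libraries, Cytl1 and Mia were called, where 12.6% of genes were (3.23% lower, 9.33% higher). There Cytl1 was lower in all injured libraries (14.9% of genes), and Scrg1 and Cnmd were higher in all (18.3%). Without library 13 Cytl1 alone of the 6 was called, among 2463 genes called in that fit (2029 of them higher). Against day 1 injured libraries, Cytl1 was called, where 15.4% of genes were (6.38% lower, 9.04% higher). There Cytl1 was lower in all day 7 libraries (17.6% of genes) and Scrg1 higher in all (22.9%). Since these contrasts informed the choice of the genes, and the contrasts share the day 7 injured libraries, nothing is read from these counts.

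The comparisons without day 7 injured libraries could be tested. They asked whether the genes differed at day 1 after rupture, and whether contralateral knees differed from naïve ones. Between day 1 injured and naïve libraries none of the 6 genes was called (0% of genes called). The edgeR FDRs were 0.987 to 0.999, and the log2 fold changes ran from −0.24 (Scrg1, standard error 0.138) to 0.04 (Cnmd, standard error 0.157). Cytl1 differed by −0.03, with a 95% interval from −0.71 to 0.65. By unadjusted p under 0.05, 959 of 21129 genes (4.54%) passed and none of the 6 did, and DESeq2 called 15 genes, none of them a member. The groups overlapped for all 6, where 1.12% of genes lay all lower and 1.02% all higher.

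Between day 1 injured and contralateral libraries all 6 log2 fold changes were above 0, where 50.3% of genes were below 0. They ran from 0.06 for Scrg1 to 0.43 (standard error 0.404) for Cytl1. The members were not alone in this. Below 0 were 0 of 20 other cartilage matrix genes, 0 of 8 hypertrophic genes, 0 of 9 fibroblast, 0 of 7 chondrocyte and 0 of 8 skeletal muscle markers. So were 1 of 8 osteoblast and osteocyte markers, 1 of 6 endothelial markers, 2 of 8 chondrocyte transcription factors and 3 of 10 relatives and partners of the members. By contrast, 8 of 8 erythroid, 7 of 8 neutrophil and 6 of 8 macrophage markers were below 0. None was called (0% of genes called, edgeR FDR 0.794 to 0.954), and 1383 genes (6.55%) had an unadjusted p under 0.05, none of them a member. The groups overlapped for all 6, where 7.35% of genes lay all lower and 4.37% all higher. In the comparison of day 1 contralateral with naïve libraries all 6 were below 0, where 50.4% of genes were. They ran from −0.10 for Cnmd to −0.46 (standard error 0.356) for Cytl1. Also below 0 were 19 of 20 other cartilage matrix genes, 8 of 8 hypertrophic genes, 9 of 9 fibroblast and 7 of 7 chondrocyte markers. The same held for 9 of 10 relatives and partners of the members and 6 of 8 chondrocyte transcription factors. It also held for 7 of 8 neutrophil and 7 of 8 osteoblast and osteocyte markers. Fewer were below 0 among erythroid (1 of 8), macrophage (4 of 8), skeletal muscle (5 of 8) and endothelial markers (4 of 6). The part of tissue composition in these shifts was not tested. Again none was called (0% of genes called, edgeR FDR 0.9998 for each). Scrg1 at −0.31 (standard error 0.138) was the one member with an unadjusted p under 0.05, at 0.0428 in the edgeR fit, among 554 genes (2.62%). The groups overlapped for all 6, where 0.639% of genes lay all lower and 0.734% all higher. These comparisons share their contralateral libraries. DESeq2 called 2 genes in the second of them, none of them a member, and none in the first.

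Between day 7 contralateral and naïve libraries none was called (0% of genes called), while 3220 of 21262 genes (15.1%) had an unadjusted p under 0.05, among them Mia alone of the 6 (edgeR, unadjusted p = 0.00504). DESeq2 called 8 genes, none of them a member. The groups overlapped for all 6, where 2.27% of genes lay all lower and 2.13% all higher. Mia had the lowest adjusted value, at 0.97 on the log2 scale (standard error 0.302, edgeR FDR 0.248). Without library 13 it was 0.11 (standard error 0.180, edgeR FDR 0.968), and over all alternatives the FDR ranged from 0.0685, without library 15, to 0.968. Cytl1 differed by −0.19 (standard error 0.347, edgeR FDR 0.818), and Scrg1 by −0.0016 (standard error 0.136, edgeR FDR 0.996). Chadl differed by 0.13, Cnmd by −0.15 and Ucma by −0.26. Without library 13 the values were −0.35 for Cytl1, −0.035 for Scrg1, −0.28 for Chadl, −0.034 for Cnmd and −0.47 for Ucma, so that Chadl changed sign, and again none of the 6 was called.

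**Figure D3:**
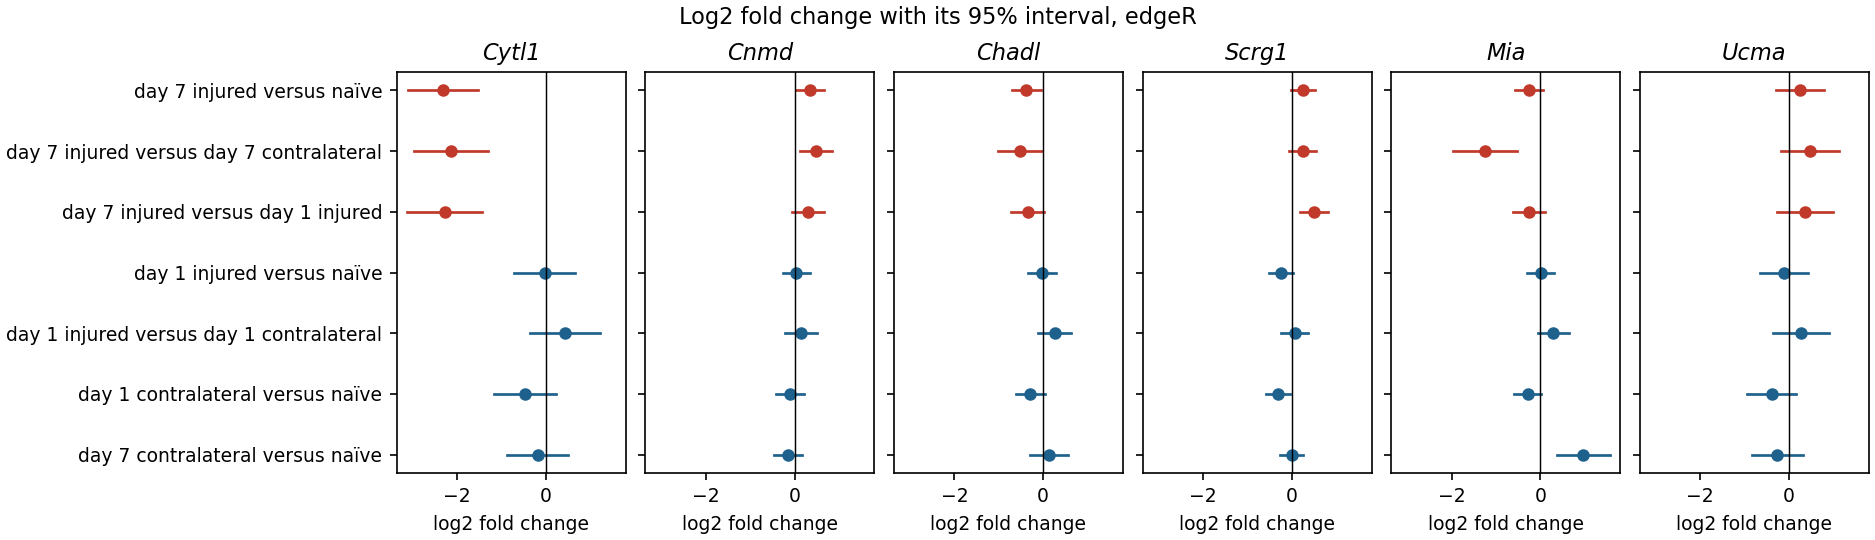
Log2 fold change of each gene in 7 comparisons with its 95% interval, from edgeR; red marks comparisons with day 7 injured libraries and blue the tested ones. Cytl1 stands between −2.31 and −2.14 in the red comparisons, and the Mia values that depart from 0 are those with the day 7 contralateral group.

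The relatives and partners of the 6 genes were described as a list of 11 genes, of which 10 were tested. Against naïve libraries 6 of them were called higher and 1 lower in day 7 injured libraries, where 10.4% and 6.11% of genes were. Their median log2 fold change was 0.77, compared with −0.04 over all genes. The list was written with earlier results of these data known, so the calls and FDRs of its genes are a description and no test. Tnmd, the relative of Cnmd, rose from a median of 5.51 CPM (4.14 to 13.3) in naïve to 89.2 CPM (81.6 to 93.0) in day 7 injured libraries, and the groups did not overlap. Its log2 fold change was 3.68 (standard error 0.370, edgeR FDR 2.88e-06), compared with 0.35 for Cnmd itself. In day 1 injured libraries Tnmd was at 2.78 to 11.4 CPM, overlapping with the naïve range. In TPM, Cnmd at 20.9 ± 4.87 (SD, n = 6) exceeded Tnmd at 2.95 ± 1.45 (SD, n = 6) in naïve libraries. In day 7 injured libraries Tnmd was at 31.1 ± 5.20 and Cnmd at 20.9 ± 4.40 TPM (SD, n = 3).

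Of 3 enzymes of the vitamin K cycle, which serves Gla proteins such as Ucma, Ggcx and Vkorc1 were called higher. Ggcx, the carboxylase, rose by 1.35 on the log2 scale (standard error 0.129, edgeR FDR 1.71e-06). Vkorc1, which recycles vitamin K, had 1.42 (standard error 0.147, edgeR FDR 3.80e-06), and its paralogue Vkorc1l1 was not called, at 0.09 (standard error 0.0649). The Gla proteins Gas6 and Mgp, the latter an inhibitor of calcification, rose by 1.02 (standard error 0.0865) and 0.83 (standard error 0.139).

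Of the relatives of Mia, the export receptor Mia3 was called higher at 0.71 (standard error 0.0828, edgeR FDR 1.24e-05). Mia2, at −0.0055 (standard error 0.0652), was not called, and Otor was too low to be tested. Chad, the chondroadherin to which Chadl is related, was called lower at −0.73 (standard error 0.259, edgeR FDR 0.0459). Its level was 126 to 164 CPM in day 7 injured and 154 to 345 CPM in naïve libraries, and it was not called against the other groups. Bst1, the receptor named for Scrg1, was not called, at −0.13 (standard error 0.168). Against day 7 contralateral and against day 1 injured libraries 6 of the 10 were called higher at day 7 after injury, where 9.33% and 9.04% of genes were. These were Tnmd, Vkorc1, Ggcx, Gas6, Mgp and Mia3, and none was called lower. Without library 13 the same 6 were called against the day 7 contralateral libraries.

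Of 20 other genes of the cartilage matrix, 5 were called higher and 1 lower at day 7 against naïve, with a median log2 fold change of 0.23. Over all genes tested in this comparison, 10.4% were called higher and 6.11% lower. Those highest were Fmod, a collagen-binding proteoglycan, at 1.99, Acan, aggrecan, at 1.57, Comp, a collagen-assembly glycoprotein, at 1.39, and Col11a1, a chain of collagen XI, at 1.26. Chad was the lower one. Of 8 chondrocyte transcription factors, 4 were called higher and none lower. These were Sox9 at 1.36, Trps1 at 1.25, Nkx3-2 at 0.84 and Sox5 at 0.64. Of the 8 factors, 3 were below 0. Among these was Sox6 at −0.43 (standard error 0.0920, edgeR FDR 0.00262), which passed the FDR limit but did not reach 1.5-fold. Of 8 genes of hypertrophic chondrocytes, 3 were called higher, Mmp13 at 0.88, Panx3 at 0.74 and Ibsp at 0.69, and none lower. Compared with day 7 contralateral libraries, 6 matrix genes, 3 transcription factors and 0 hypertrophic genes were called higher, where 9.33% of all genes were. Without library 13 these counts were 5, 3 and 0. Compared with day 1 injured libraries they were 5, 2 and 1, where 9.04% of all genes were called higher. No gene of these lists was called lower in these comparisons. Mmp13 was at 0.12 (standard error 0.257) against day 7 contralateral libraries. No gene of these lists was called in the 4 comparisons without day 7 injured libraries. The lists were written with earlier results of these data known, so their calls with day 7 injured libraries are a description and no test.

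The cartilage label was checked against markers, each as a CPM sum over a list, and none of the listed markers was at 3 counts or fewer in all libraries. Chondrocyte markers, of which Col2a1 was the most abundant, summed to 6092 to 6804 CPM in day 7 injured and to 3484 to 6714 CPM in naïve libraries. Of these 7 markers, 3 were called higher against naïve, where 10.4% of genes were. In library 13 they summed to 12290 CPM. Fibroblast markers, with Col1a1 the most abundant, summed to 95118 to 109404 CPM in day 7 injured libraries, to 12688 to 36422 CPM in 14 others and to 83773 CPM in library 13. Of these 9 markers, 7 were called higher against naïve (10.4% of genes), led by Col3a1 at 3.65 and Col14a1 at 2.99 on the log2 scale. Their part in the lower level of Cytl1 was not tested.

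In day 7 injured against naïve libraries, macrophage markers (Lyz2 the most abundant) had 0 of 8 called and skeletal muscle markers (Myh4) 0 of 8. All 8 muscle values were below 0, with a median of −0.76. The muscle sum was 2713 to 5762 CPM in day 7 injured and 3409 to 11521 CPM in naïve libraries. Erythroid markers (Hbb-bs) had 5 of 8 called lower and neutrophil markers (Ngp) 2 of 8. Of osteoblast and osteocyte markers (Ibsp), 1 was called higher and 2 lower of 8, and of endothelial markers (Vwf) 3 of 6 were called higher. The part of these tissues in the levels of the 6 genes was not tested.

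Likeness of 2 genes was measured as the root-mean-square difference of their log2 CPM over the libraries, each centred on its own mean, and is a description. Over the 18 libraries the genes nearest to Cytl1 were Lgals12 at 0.38, Cidec at 0.40 and Smtnl1 at 0.41, where the median gene was at 0.98. Over the 15 libraries without day 7 injured ones, they were 1500015O10Rik at 0.15, Fbln7 at 0.19 and Stk32b at 0.19. The nearest genes of the other members are given over all 18 libraries. For Chadl they were Sox8, Zfp219 and Gm47815 (0.19 to 0.21), and for Ucma Adamtsl5, Tns1 and Raver2 (0.23). Scrg1 was nearest BX649560.1, Gm48226 and Kif13a (0.15 to 0.17), and Cnmd nearest Zhx2, Prex2 and Hapln1 (0.13), the last a link protein of the matrix. Mia was nearest Snorc at 0.21, Chst13 at 0.22 and Aarsd1 at 0.26, but without library 13 Csmd1, Lrp4 and Dennd1b took their place. Without it Unc5c, Mef2c and Kank1 were nearest to Chadl in place of all 3 named, Scrg1 and Cnmd each kept 1 of 3, Ucma kept 2 and Cytl1 all 3. Among the 6 genes, Cnmd and Scrg1 were the most alike over all 18 libraries, at 0.22, and 1.90% of genes were nearer to Cnmd than Scrg1 was. Cytl1 was 0.81 to 1.02 from each of the others over all libraries. Over the 15 libraries without day 7 injured ones it was 0.31 from Ucma, with 0.611% of genes nearer to Cytl1, 0.46 from Scrg1, 0.47 from Cnmd, 0.51 from Chadl and 0.65 from Mia.

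Since Cidec is a gene of fat cells, a list of 8 adipocyte markers was added after these genes had been seen. Their CPM sum, with Cfd the most abundant, was 359 to 1105 in naïve libraries (median 658), 283 to 406 in day 7 injured and 671 to 916 in day 7 contralateral libraries. Among the 15 libraries without day 7 injured ones, the 3 with the lowest Cytl1, at 33.3, 36.7 and 38.0 CPM, also had the 3 lowest sums, at 297, 372 and 359 CPM. The library with the highest Cytl1, at 111 CPM, had the highest sum, at 1105 CPM. In between, the order differed. Library 14 had 50.1 CPM of Cytl1 with a sum of 818 CPM, and library 7 had 101 CPM of Cytl1 with a sum of 680 CPM. The mean sum was 802 CPM in day 7 contralateral and 695 CPM in naïve libraries, whereas mean Cytl1 was 71.1 and 80.5 CPM. As a share of the sum, Cytl1 was 6.13% to 14.9% (median 10.6%) in these 15 libraries and 4.15% to 5.11% in the day 7 injured ones. The part of adipose tissue in the level of Cytl1 was not tested.

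**Figure D4:**
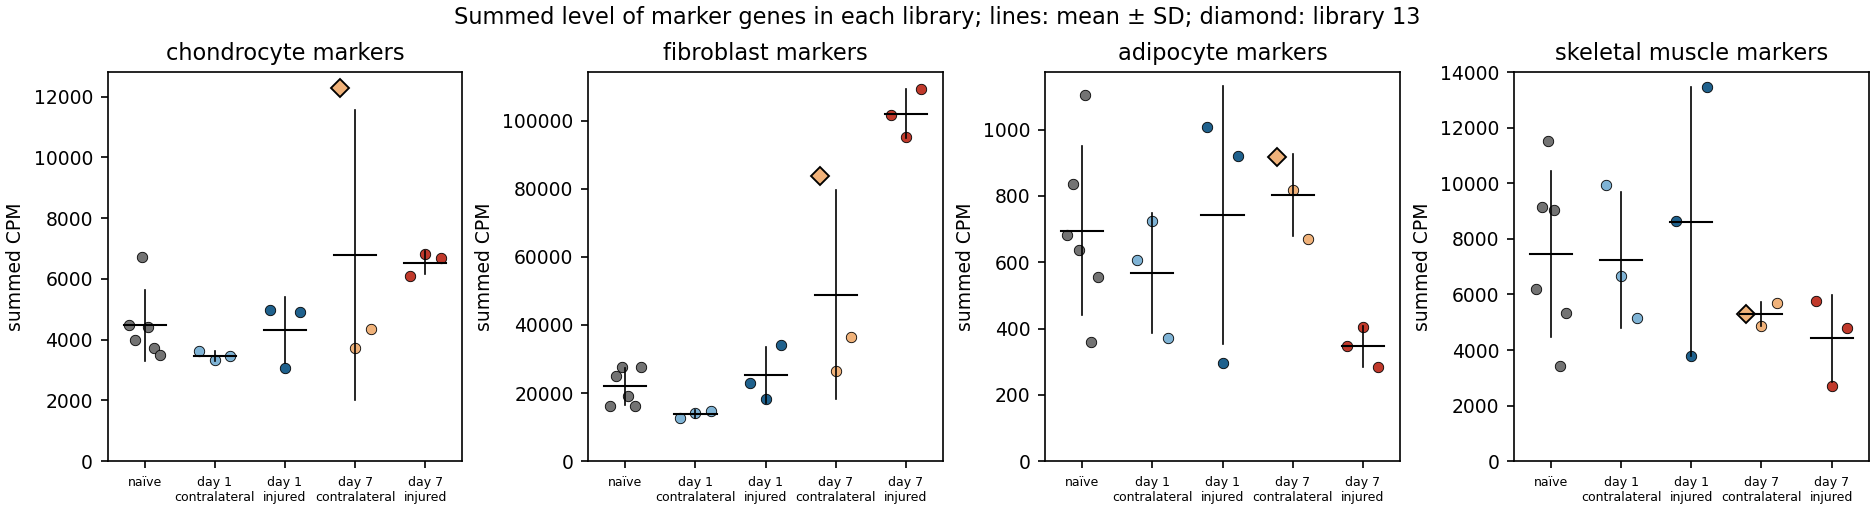
Summed CPM of chondrocyte, fibroblast, adipocyte and skeletal muscle markers in each library, by group, with mean and SD as lines and library 13 as a diamond. Day 7 injured libraries have the highest fibroblast sums, 95118 to 109404 CPM, and adipocyte sums of 283 to 406 CPM, which overlap with the lowest of the other libraries (297 CPM upward) and extend below them.

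The shares of counts by transcript bear on the stretches printed above. Cnmd-203, which holds the 12-base stretch, took 53.1% to 64.5% of the estimated counts of Cnmd in the 17 libraries without library 13, and Cnmd-201, which lacks it, 30.1% to 42.7%. These ranges did not overlap. In library 13 the shares were 28.5% and 35.3%, and Cnmd-205 took 28.6%, compared with at most 2.54% elsewhere. In day 7 injured libraries Cnmd-203 held 56.9%, 58.0% and 58.7%, within the naïve range of 53.1% to 64.5%.

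For Ucma, Ucma-202, with both exons, took 34.4% to 97.3% of the counts. Ucma-201, without the 66-base exon, took up to 45.8% and under 0.05% in 4 libraries, and Ucma-204, without the 99-base exon, at most 13.7%. Libraries of 1 group differed as widely as groups did, with Ucma-201 at 39.8%, under 0.05% and 13.1% in the day 7 injured libraries. With 98 to 306 counts of Ucma in a library these shares are imprecise. Cytl1 was given to 1 of its 2 transcripts at 96.3% to 100%, Chadl to Chadl-201 at 86.2% to 97.9% and Mia to Mia-201 at 69.0% to 100%, while Scrg1 has 1 transcript.

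**Figure D5:**
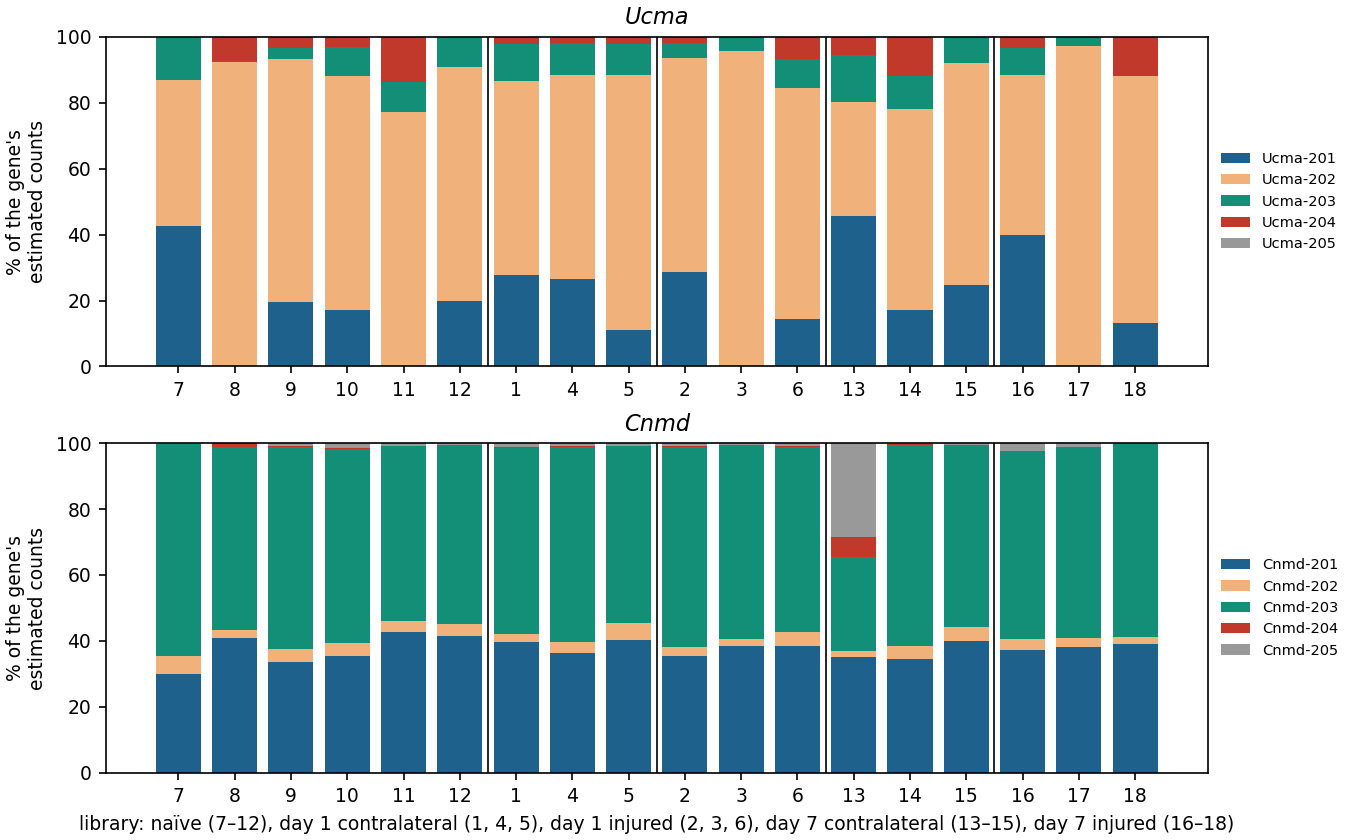
Share of the estimated counts of Ucma and Cnmd given to each transcript, in percent, in every library, with lines between groups. Cnmd shares are even in all libraries but 13, and Ucma-201 ranges from 0 to 45.8%.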

How the data were processed

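RNA-Seq libraries were made by the study from pooled femoral condyle cartilage with a stranded total RNA kit after removal of ribosomal RNA. The authors pseudo-aligned the reads with kallisto to the mouse transcriptome and deposited estimated counts and TPM per transcript and library, together with effective lengths, which are no expression unit. The labels' processing notes also name DESeq2 and the build GRCh38, although the transcript identifiers are of mouse. The study removed 1 library for its mapping rate without naming it, and whether library 13 is that library is not known.

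Of 137436 transcripts, 135107 (98.3%) were assigned to genes of the GENCODE annotation of GRCm38, without identifier versions. Estimated counts were summed per gene and rounded. Transcripts without a gene held 0.667% to 3.90% of the counts and were left out. Groups were compared by quasi-likelihood in edgeR 4.0.16, run in R 4.3.3, after TMM scaling and its filter on low counts, on 18 libraries (21262 genes) where day 7 contralateral libraries entered and otherwise on the other 15 (21129 genes). P-values were adjusted over all genes tested (Benjamini-Hochberg). Calls needed an FDR up to 0.05 and a change of 1.5-fold or more. The standard errors given with edgeR values were derived from its test, as the absolute log2 fold change divided by the square root of the F statistic. A 95% interval is the estimate with 1.96 standard errors on each side. This multiplier takes no account of the small number of libraries, so the intervals are narrower than the test implies. Counting error alone limits genes of few counts, and a level of at most 3 counts was taken as the floor.

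The 6 genes and all lists were chosen with earlier results of these data known. Named genes are the 6 genes, their listed relatives and partners, at most 4 called genes per direction and list in the day 7 injured against naïve comparison, the 3 nearest genes by likeness and the most abundant marker of each list. Sox6 was named in addition, since it passed the FDR limit in the direction opposite to the called genes of its list. Alternatives were DESeq2 1.42.0, limma-voom (limma 3.58.1), DESeq2 size factors, no filter, transcript length offsets, other groups in the fit and each library left out. Sequences come from the GENCODE transcripts.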

Additional observations from a re-analysis of the deposited data

Results flagged for a closer look

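The chondrocyte marker sum was 6714 CPM in naïve replicate 9, which set it apart from the 5 other naïve libraries, at 3484 to 4494 CPM, by Dixon's criterion. The gap to the nearest library was 0.687 of the whole range, above the critical value of 0.625. In the same library Chadl at 21.2 CPM, Cnmd at 55.4 CPM, Ucma at 10.6 CPM and Mia at 9.09 CPM were at their highest among naïve libraries, while Cytl1 at 82.9 CPM and Scrg1 at 10.7 CPM were not. The criterion was applied to the naïve levels of the 6 genes and to 8 marker sums, and chance flags about 1 in 20 such groups.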

How the results depend on the processing

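For day 7 injured against naïve libraries, each of the 6 log2 fold changes kept its direction in all 21 alternatives, and Cytl1 remained the 1 member called. This describes the processing and is no test, since comparisons with day 7 injured libraries informed the choice of the genes. Against day 7 contralateral libraries, 1 member in place of 2 was called by limma-voom and when only the groups compared were fitted. Leaving out 1 library gave 1 to 3 members, namely 1 without library 13, 17 or 18 and 3 without library 14 (Chadl at −0.78), and the cause was not tested beyond the values of library 13 given above. DESeq2 called 15 genes between day 1 injured and naïve, 2 between day 1 contralateral and naïve and 8 between day 7 contralateral and naïve libraries, where edgeR called 0. Directions reversed only among values that were not called. For Scrg1 between day 7 contralateral and naïve libraries, the change became 0.012 with DESeq2, 0.010 with limma-voom, 0.015 with DESeq2 size factors and 0.0036 without the filter, and ranged from −0.073 to 0.059 with 1 library left out. For Mia between day 1 injured and naïve libraries it became −0.015 with limma-voom and −0.013 with transcript length offsets (−0.16 to 0.11 with 1 library left out). For Cnmd between day 7 contralateral and naïve libraries it became 0.18 with transcript length offsets. With 1 library left out, changes between day 1 injured and naïve libraries ranged from −0.11 to 0.11 for Chadl, −0.085 to 0.25 for Cnmd, −0.25 to 0.34 for Cytl1 and −0.29 to 0.19 for Ucma, and Scrg1 between day 1 injured and contralateral libraries from −0.031 to 0.18. Those between day 7 contralateral and naïve libraries ranged from −0.28 to 0.38 for Chadl and from −0.35 to 0.027 for Cytl1. The nearest genes by likeness depended on the libraries and on the scale: with log2(TPM + 1), 1 of the 3 named for Cytl1 and 0 of 3 for each other member remained. No paired analysis was made because the labels do not tie libraries to mice, and the replicate numbers only count the libraries. The study did take shared mouse pools into account in its own fit.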
